A study of Mus musculus with 8 samples.

Results

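The 10 genes described here encode receptors that place B and T cells within a lymph node, Cxcr5, Cxcr4, Ccr7, Ccr6, Gpr183, S1pr1, S1pr2 and S1pr4, and a pair of proteins that damp signalling from such receptors, Rgs1 and Rgs13. They were chosen by name and are 10 of the 32285 genes in the expression tables. Each was followed in raw UMIs (unique molecules counted per cell) through the B and T cell classes of 5 single-cell libraries. The libraries came from live immune cells sorted from deep cervical lymph nodes, which drain the head, of C57BL/6 mice on day 20 after an intracranial injection. The saline control group was injected with DPBS in place of tumour cells and had its B cells. The other 4 groups carried GL261 cells, a mouse glioma line. The isotype group was given isotype IgG and the anti-CTLA-4 group an antibody that blocks the checkpoint receptor CTLA-4, and both had their B cells. The depleted isotype and depleted anti-CTLA-4 groups were given the same antibodies and also anti-CD20, an antibody that depletes B cells. The sources used here say neither how many mice stand behind a library nor if mice of the saline control group received isotype IgG. Each group had 1 library, so no difference has a replicate check and none was tested.

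A naive lymphocyte enters a lymph node with CCR7, which follows the chemokines CCL19 and CCL21 into the T cell zone, and B cells and follicular helper T (Tfh) cells move on into the B cell follicle with CXCR5, whose ligand is CXCL13. Activated cells are held at the border of the follicle by GPR183, a receptor for oxysterols, and leave the node with S1PR1, which follows sphingosine 1-phosphate into the lymph. In the germinal centre, where B cells mutate and select their receptors, CXCR4 draws cells into the dark zone, S1PR2 holds them in place, and RGS proteins shorten the signal of the G proteins that these receptors use.

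The 5 libraries held 9014 to 11791 barcodes and 54715065 to 63497466 UMIs, and 8300 to 10591 cells were kept. Pairs of libraries shared 90 to 142 cell barcodes. The isotype library stood apart from the others: a cluster of T cells with B cell genes took 259 of its 282 cells from it and was used in no class, and a follicular cluster took 239 of its 247 cells from it. Its median mitochondrial share was 1.00%, against 1.77% to 2.09% elsewhere. Classes were built by clustering without the 10 genes and without antigen receptor genes. Of the genes used to name them, germinal centre B-like cells had means over the libraries of 353 CPM for Mef2b and 518 for Basp1, Tfh-like cells 278 for Pdcd1 and 325 for Tox2, and regulatory T cell (Treg)-like cells 348 for Foxp3. Since the naming rules required these genes, their presence is no separate check of identity. CPM here is a gene's UMIs scaled to 1000000 UMIs of that class in that library. Values below stand in the order saline control, isotype and anti-CTLA-4, followed by depleted isotype and depleted anti-CTLA-4, and the 3 libraries with B cells are the first 3 of these. The 95% intervals, given as a range in parentheses, cover counting error only.

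Follicular B-like cells numbered 3498, 3481 and 4132 in the libraries with B cells and 12 and 21 after depletion. Germinal centre B-like cells numbered 29, 80, 170, 27 and 44, and Tfh-like cells 18, 16, 53, 20 and 24, so values in these classes rest on few cells. The Tfh-like class joined a first cluster of 15, 4, 27, 14 and 10 cells and a second of 3, 12, 26, 6 and 14. Leading genes of the first included Tox2, Sostdc1 and Pdcd1, and those of the second Sostdc1 and Il4 but also Il17a and Ccl1. The makeup of this class thus differed between libraries. Other B cell classes were activated B-like cells (Myc-high, 520, 701 and 387 cells) and Fcrl5-high B cells (374, 324 and 463). T cell classes held 20 or more cells in every library apart from the Tfh-like class and, in the saline control library, 17 proliferating T cells. Genes of the other lineage, a measure of RNA carried over between cells, stood at no more than 1.46% of their level in their own lineage in any class. Clusters with more of some of these genes had been left out of the classes, so this share was in part limited by the naming.

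**Figure D1:**
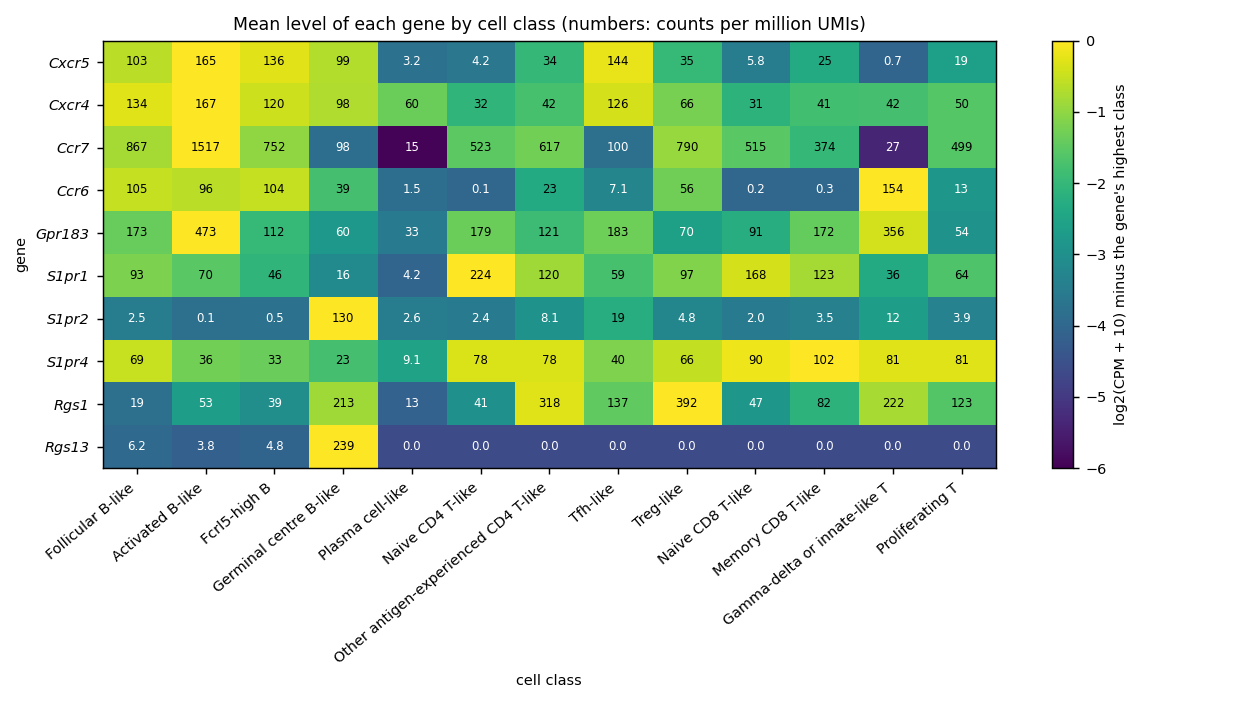
Levels of the 10 genes (rows) in 13 cell classes (columns). Each cell prints the mean CPM over the libraries with enough cells, and its colour is log2(CPM + 10) minus that of the gene's highest class. Rgs13 and S1pr2 are high in germinal centre B-like cells alone, and Cxcr5 is high in the B cell classes and in Tfh-like cells.

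Cxcr5 (ENSMUSG00000047880, chromosome 9, 44511787 to 44526444 of GRCm38.p6, the build of all positions here) guides cells into the follicle. Its highest levels were in activated B-like cells, at 183.5, 139.5 and 172.9 CPM in the libraries with B cells. Tfh-like cells reached 158, 163, 139, 102 and 156 CPM, from 15, 28, 49, 15 and 24 UMIs. The ranges of these B and T cell classes overlap. A gate in place of the cluster, T cells with Cd4 but no Foxp3 and with UMIs of at least 2 of the 5 genes Il21, Tox2, Pdcd1, Sostdc1 and Asb2, took 34, 32, 64, 50 and 71 cells and gave 87.0, 119, 105, 59.1 and 56.6 CPM. Of the gated cells, 7, 11, 31, 11 and 19 were also in the clustered Tfh-like class. The gated values lay below all 3 of the activated B-like class, so the overlap of ranges depends on how Tfh-like cells are defined. Fcrl5-high B cells had 161, 112 and 115 CPM and follicular B-like cells 144, 97.9 and 111 CPM, and naive CD4 T-like cells had 3.57 to 4.58 CPM. Clustered Tfh-like cells were thus 28.7 to 40.6 times naive CD4 T-like cells within each library, in 5 of 5 libraries. Against other antigen-experienced CD4 T-like cells the ratio was 2.93 to 5.43.

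Cxcr5 was also higher in Treg-like and memory CD8 T-like cells than in naive T cells. Treg-like cells, 386 to 778 per library, had 35.8, 33.2, 36.55, 32.0 and 35.7 CPM. These values lay close together and were 7.75 to 9.20 times those of naive CD4 T-like cells, with every interval above 1. Memory CD8 T-like cells were 3.46 to 4.94 times naive ones, at 18.9 to 32.4 CPM. Plasma cell-like cells could be read in the isotype (40 cells) and anti-CTLA-4 (22 cells) libraries and had 1.45 and 4.99 CPM, 0.0149 and 0.0451 of the follicular level.

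Ccr7 (ENSMUSG00000037944, chromosome 11, 99144199 to 99155077) draws cells to the T cell zone. It was highest in activated B-like cells, at 1428, 1590 and 1532 CPM, and stood at 993, 979 and 886 CPM in follicular B-like cells. The activated class was above the follicular one in each of the 3 libraries, by 1.44 to 1.73. Germinal centre B-like cells had 103, 101, 61.1, 105 and 119 CPM, which is 0.0690 to 0.195 of the follicular level in the 4 libraries where both could be measured. Tfh-like cells had 126, 110, 76.4, 123 and 65.1 CPM and naive CD4 T-like cells 551, 525, 588, 493 and 457 CPM, a ratio of 0.130 to 0.249. In the gated Tfh-like cells Ccr7 stood at 213, 70.4, 279, 227 and 279 CPM, nearer to the naive level in 4 of the 5 libraries but below it in each. Cells of both germinal centre partners, B and T, were therefore below the naive or follicular class in Ccr7, T cells by less in the gate than in the cluster. Treg-like cells were not: they had 678, 794, 799.6, 876 and 805 CPM, 1.23 to 1.775 times the naive CD4 level, and lay above it in 5 of 5 libraries. Gamma-delta or innate-like T cells, 20 to 41 cells per library, had 8.71 to 45.7 CPM.

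Cxcr4 (ENSMUSG00000045382, chromosome 1, 128588199 to 128592299) follows CXCL12 into the dark zone and the medulla. Follicular B-like cells had 167, 156.5 and 150.5 CPM, activated B-like cells 173, 171 and 158 CPM, and germinal centre B-like cells 106, 78.3, 115, 90.9 and 97.8 CPM. Tfh-like cells had 105, 98.8, 153, 130 and 143 CPM, against 26.9 to 43.6 CPM in naive CD4 T-like cells. The Tfh-like values were 2.42 to 4.82 times the naive ones, and Treg-like cells were 1.79 to 2.33 times them. Gated Tfh-like cells had less Cxcr4 than the clustered ones, 82.2, 62.3, 93.7, 47.3 and 51.3 CPM, but still more than naive CD4 T-like cells. Plasma cell-like cells, which depend on CXCR4 to reach the medulla and bone marrow, had 55.2 and 64.9 CPM, 0.353 and 0.431 of the follicular level. Their medians were 33374 and 29308 UMIs per cell, against 3715 and 3366 in follicular B-like cells. A lower share of all UMIs is therefore not a lower Cxcr4 count per cell here.

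Ccr6 (ENSMUSG00000040899, chromosome 17, 8236041 to 8258519), the receptor for CCL20, marks naive B cells and type 17 T cells. Its highest level was in gamma-delta or innate-like T cells, at 204, 111, 192, 150 and 114 CPM. The follicular, activated and Fcrl5-high classes lay close together, with 93.6, 89.3 and 96.4 CPM in follicular B-like, 96.9, 89.5 and 102 in activated B-like and 112, 109 and 124 in Fcrl5-high B cells. Ccr6 in germinal centre B-like cells was at 0.144 to 0.571 of the follicular level, and in plasma cell-like cells at 0.0326 and 0.0518. Naive CD4 T-like cells held 2, 0, 2, 0 and 1 UMIs in all. Treg-like cells had 61.0, 37.7, 59.4, 57.4 and 65.95 CPM, the isotype library being the lowest. Their Ccr6 was at least 88.1 times that of naive CD4 T-like cells in the isotype library, a bound from 3 counts per library, since the naive class had 0 UMIs there.

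Gpr183 (ENSMUSG00000051212, chromosome 14, 121952331 to 121965193) places activated B cells at the outer follicle. Activated B-like cells had 519, 412 and 488 CPM and follicular B-like cells 219, 186 and 200 CPM, a ratio of 2.22 to 2.44. Germinal centre B-like cells had 28.2, 34.8, 32.0, 68.2 and 136 CPM. They were below follicular B-like cells in each of the 3 libraries with B cells, and at 1.56 (0.797 to 3.41) times them in depleted anti-CTLA-4, from 44 and 21 cells. In T cells, naive CD4 T-like cells had 164, 183, 200, 165 and 185 CPM, and naive CD8 T-like cells 86.7 to 93.7 CPM, which is 0.468 to 0.549 of the CD4 level in each library. Treg-like cells were at 0.306 to 0.436 of the naive CD4 level. Clustered Tfh-like cells were spread widely, with values of 253, 34.9, 133, 239 and 254 CPM from 24, 6, 47, 35 and 39 UMIs, the isotype library, at 16 cells, being the lowest. Of these 16 cells 12 were of the second Tfh-like cluster, so library and makeup cannot be told apart. The gated Tfh-like cells were closer together, at 87.0, 86.7, 114, 136 and 89.5 CPM.

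**Figure D2:**
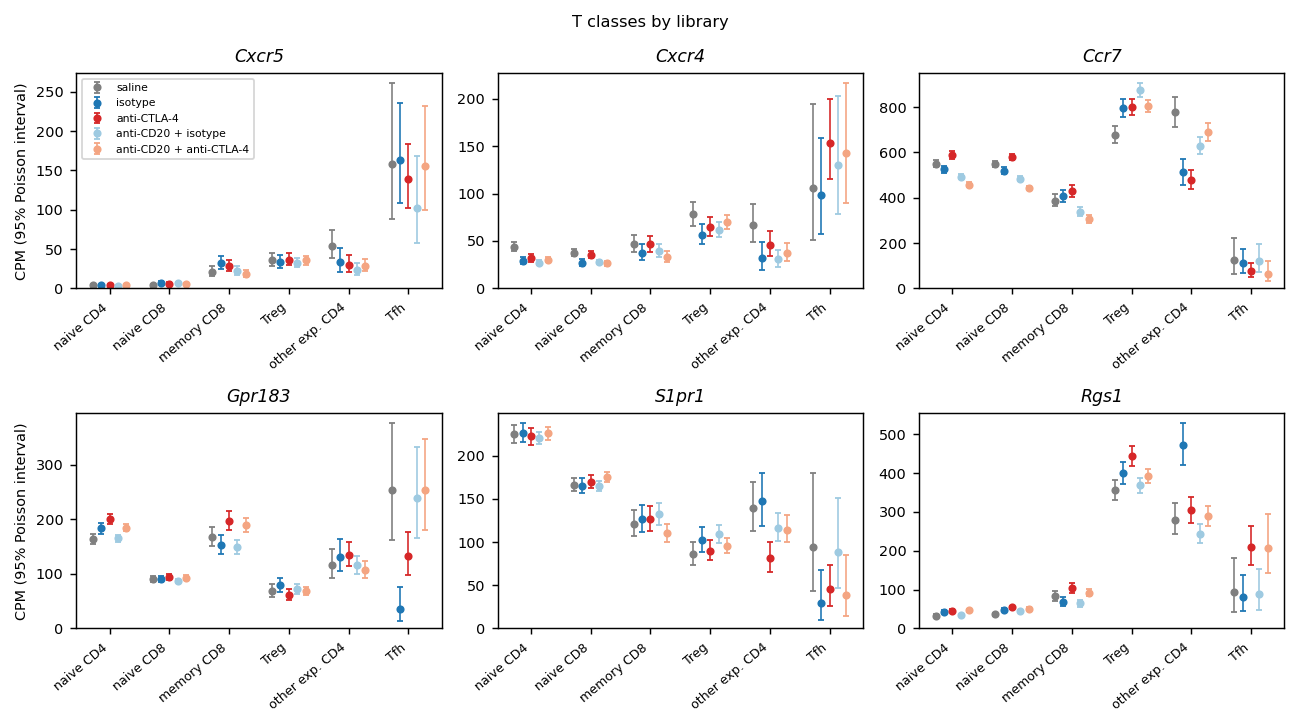
Clustered T cell classes, with CPM (vertical axis) of Cxcr5, Cxcr4, Ccr7, Gpr183, S1pr1 and Rgs1 in 6 T cell classes, 1 point per library with its 95% Poisson interval. Cxcr5 is highest in Tfh-like cells in each library, at 102 to 163 CPM, S1pr1 lies between 220.4 and 226.5 CPM in naive CD4 T-like cells, and the Gpr183 values of clustered Tfh-like cells are spread from 34.9 to 254 CPM.

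S1pr1 (ENSMUSG00000045092, chromosome 3, 115710433 to 115715055) lets cells leave the node. Naive CD4 T-like cells had 225, 226.5, 223, 220.4 and 226 CPM, the narrowest relative spread of any member in this class. Naive CD8 T-like cells had 166, 166, 170.1, 165 and 175 CPM, 0.731 to 0.775 of the CD4 level. Treg-like cells had 86.2, 103, 89.9, 109 and 95.55 CPM. Their ratio to naive CD4 T-like cells, 0.383 to 0.495, had its interval below 1 in 5 of 5 libraries. Tfh-like cells were at 0.128 to 0.422 of naive CD4 T-like cells. Follicular B-like cells had 103, 92.3 and 80.6 CPM and germinal centre B-like cells 12.5, 28.0, 19.8, 8.52 and 12.8 CPM, 0.122 to 0.303 of the follicular level.

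S1pr4 (ENSMUSG00000044199, chromosome 10, 81497745 to 81500137), a second sphingosine 1-phosphate receptor of blood cells, was spread over the lymphocyte classes. Memory CD8 T-like cells had 109, 93.3, 86.95, 111 and 107 CPM, naive CD8 T-like cells 84.0 to 102 CPM, naive CD4 T-like cells 72.2 to 93.8 CPM and follicular B-like cells 98.1, 72.4 and 78.2 CPM. These ranges overlap. Activated B-like cells were at 0.354 to 0.483 of the follicular level, and germinal centre B-like cells had 15.7 to 31.1 CPM.

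S1pr2 (ENSMUSG00000043895, chromosome 9, 20965952 to 20976793) confines cells to the germinal centre. Germinal centre B-like cells had 153, 90.8, 168, 82.4 and 155 CPM from 49, 146, 398, 29 and 73 UMIs. Follicular B-like cells had 0.719, 0.221 and 0.404 CPM, and activated B-like cells 0, 1 and 0 UMIs. Among T cells, the Tfh-like class had 21.1, 5.81, 34.0, 34.1 and 0 CPM, against 1.77 to 3.44 CPM in naive CD4 T-like cells. These values rest on 2, 1, 12, 5 and 0 UMIs. The ratio to naive cells had its interval above 1 in 2 of the 5 libraries, anti-CTLA-4 and depleted isotype. Gated Tfh-like cells had 4.83, 8.12, 21.6, 7.88 and 2.63 CPM of S1pr2, from 1, 3, 12, 4 and 2 UMIs. Depleted isotype was thus much lower in the gate than in the cluster.

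Rgs13 (ENSMUSG00000051079, chromosome 1, 144137386 to 144177372), a germinal centre B cell brake on chemokine receptors, was measured almost only in that class. Germinal centre B-like cells had 257, 88.3, 246, 338 and 264 CPM from 82, 142, 584, 119 and 124 UMIs. Fcrl5-high B cells had 7.95, 8.50 and 2.85 CPM and follicular B-like cells 3.09, 2.13 and 2.02 CPM. The whole T lineage held 1, 0, 1, 0 and 1 UMIs. With every cell thinned to 2000 UMIs, 29.6%, 10.0%, 35.4%, 37.0% and 38.1% of germinal centre B-like cells had an Rgs13 UMI (unthinned 62.1%, 41.2%, 65.3%, 74.1% and 65.9%, at medians of 8658, 17760, 11945, 10670 and 9538 UMIs per cell). The thinned share was 0.453%, 0.305% and 0.289% in follicular B-like cells. No naive CD4 T-like cell thinned in this way had one, which allows shares of up to 0.195%, 0.2285%, 0.1665%, 0.0976% and 0.102%, at medians of 5154, 5106, 4602, 5258 and 5394 UMIs per cell before thinning. In the anti-CTLA-4 library 91 of 170 germinal centre B-like cells held UMIs of both S1pr2 and Rgs13, with 115 and 111 holding each. In the isotype library the count was 23 of 80, with 43 and 33 holding each.

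The promoters of S1pr2 and Rgs13 are shown because these members were the ones held largely to germinal centre B-like cells. RefSeq promoter sequences (GRCm38.p6) were at hand for 6 of the 10 members. Each run below is the 250 bases before the annotated start on the minus strand of its chromosome, S1pr2 at chr9:20976794-20977043 and Rgs13 at chr1:144177373-144177622, and capitals mark the match to a searched motif.
S1pr2: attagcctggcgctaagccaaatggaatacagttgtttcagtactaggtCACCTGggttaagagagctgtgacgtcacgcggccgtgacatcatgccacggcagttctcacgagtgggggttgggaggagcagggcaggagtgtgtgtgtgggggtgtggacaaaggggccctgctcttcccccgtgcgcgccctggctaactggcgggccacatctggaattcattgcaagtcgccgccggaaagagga
Rgs13: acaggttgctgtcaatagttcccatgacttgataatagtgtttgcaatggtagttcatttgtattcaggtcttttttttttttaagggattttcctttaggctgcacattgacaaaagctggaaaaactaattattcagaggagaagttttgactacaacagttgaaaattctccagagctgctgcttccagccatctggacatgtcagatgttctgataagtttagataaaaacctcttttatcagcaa
Both strands were searched for CAGGTG (an E-box bound by E2A), ATGCAAAT (the octamer bound by Oct factors) and TTCNNNGAA (a STAT site). The S1pr2 promoter held 1 match, CAGGTG on the opposite strand, 201 to 196 bases before the start. In the Rgs13 window these letters were not found. Of all 32851 promoters in the table, 17.2% held CAGGTG, 1.60% ATGCAAAT and 7.02% TTCNNNGAA, so the S1pr2 match is a common one.

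Rgs1 (ENSMUSG00000026358, chromosome 1, 144244669 to 144249104) lies 67296 bases from Rgs13 with 0 protein-coding genes between them, and it limits the response of B and T cells to chemokines. Unlike its neighbour it was present across activated classes of both lineages. Treg-like cells had 355, 400, 444, 368.5 and 392 CPM, which was 8.41 to 10.9 times naive CD4 T-like cells. Other antigen-experienced CD4 T-like cells had 280.2, 472, 304, 243 and 288 CPM. Germinal centre B-like cells had 147, 228, 228, 88.0 and 374 CPM, 8.56 to 43.0 times the follicular level, though 1 cell gave 44.7% of the UMIs in the saline control library. The median of this ratio over 4 libraries was 9.12. The value of 43.0 is from depleted anti-CTLA-4, where the follicular level rests on 21 cells. Clustered Tfh-like cells, at 94.9, 81.4, 209, 88.7 and 208 CPM, were below other antigen-experienced CD4 T-like cells in all 5 libraries, at 0.172 to 0.723 of their level. That other class is not free of Tfh genes, since Tox2 was among the leading genes of some of its clusters. The gated Tfh-like cells had more Rgs1, 271, 97.5, 238, 238 and 272.5 CPM, which is near the other class in saline control, depleted isotype and depleted anti-CTLA-4.

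**Figure D3:**
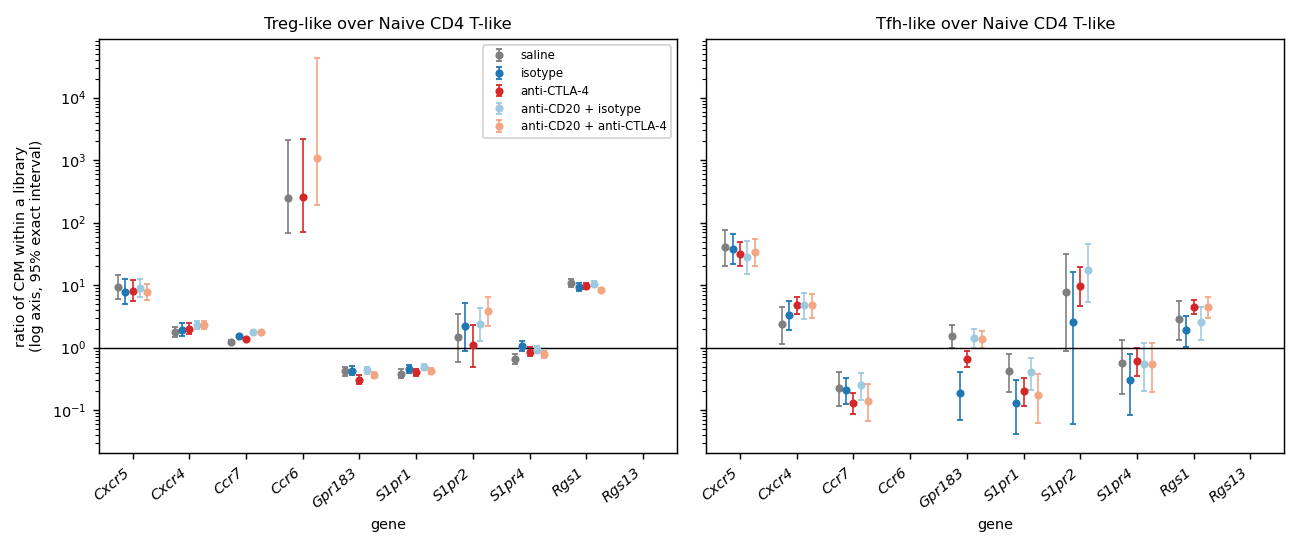
Ratio of CPM (vertical log axis) of each gene in Treg-like and in Tfh-like cells over naive CD4 T-like cells, 1 point per library with its 95% interval. No point is drawn where a ratio could not be given because 1 of the classes held 0 UMIs or both held few. Both classes are above naive cells in Cxcr5, Cxcr4 and Rgs1 and below them in S1pr1, while Ccr7 is above them in Treg-like cells (1.23 to 1.775) and below them in Tfh-like cells (0.130 to 0.249).

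Across the 13 classes, the genes whose mean levels followed a member's most closely were sought among 5213 genes by Pearson correlation of log2(CPM + 10). The classes share libraries and depth, and a gene high in 1 class alone correlates with others of that kind, so these values are descriptions. Rgs13 was most like Rassf6, Plxnb2 and Gcsam, each at 0.99, and S1pr2 like Parm1 (0.94), H1fx (0.91) and Mybl1 (0.91). Cxcr5 was most like Camk2d (0.94), A630001G21Rik (0.94) and Coq8a (0.90), and Cxcr4 like Coq8a (0.95), Lmbrd1 (0.90) and Zeb2 (0.89). Ccr7 stood nearest to BE692007 (0.93), Clec2i (0.88) and Klf2 (0.87), and Ccr6 nearest to Irak2 (0.93), Ly6e (0.92) and Myo1e (0.91). For Gpr183 the nearest were Rnf144a (0.87), Hexim1 (0.85) and Ier2 (0.83), and for Rgs1 they were Plaat3 (0.87), Nt5e (0.87) and Dtx3 (0.85). S1pr1 went with Dyrk2 (0.94), Arhgef18 (0.93) and Pik3ip1 (0.93), and S1pr4 with Lgals9 (0.93), Arhgap9 (0.92) and Mob2 (0.92). By rank correlation 4 of these 30 genes were again among the 3 nearest.

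The comparison of isotype with saline control asks how the genes differ between nodes of glioma-bearing and tumour-free mice with B cells. Differences were counted where the ratio was at least 1.5 or at most its inverse and both libraries together had at least 100 UMIs. Over 8 classes, 57 member and class pairs had enough UMIs, and 6 were past this size, 3 higher and 3 lower, or 10.5%, beside 2.94% of all gene and class pairs. The members' median log2 ratio was -0.13 in follicular B-like cells, beside -0.04 over all genes, and 0.17 in other antigen-experienced CD4 T-like cells, beside -0.02. In other antigen-experienced CD4 T-like cells Ccr7 went from 776.5 to 512 CPM (ratio 0.659, 0.573 to 0.758) and Rgs1 from 280.2 to 472 CPM (1.69, 1.40 to 2.03). S1pr4 in Fcrl5-high B cells went from 48.0 to 31.4 CPM (0.654, 0.493 to 0.863), and Ccr6 in Treg-like cells from 61.0 to 37.7 CPM (0.618, 0.457 to 0.831). Cxcr5 was higher in naive CD8 T-like cells, at 6.92 against 4.33 CPM (1.60, 1.07 to 2.39), and in memory CD8 T-like cells, at 32.4 against 21.4 CPM (1.51, 1.02 to 2.26). Several of these were past the size in only some of the 7 alternative settings: Ccr7 in 4 (0.520 to 0.726), Rgs1 and S1pr4 in 5 each, and Cxcr5 in 3 for naive CD8 (1.46 to 1.78) and 4 for memory CD8 T-like cells (1.33 to 1.75).

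Cxcr5 went the other way in B cells. In the B lineage as a whole its ratio was 0.650 (0.614 to 0.687), where 5.33% of genes were past the same size, and 0.671 with median-ratio size factors, just short of it. Within classes it was 0.681 (0.635 to 0.730) in follicular B-like, 0.760 in activated B-like and 0.696 in Fcrl5-high B cells, each short of the size counted. It was below 1 in 9 of the 9 B cell clusters compared, at 0.589 to 0.839, with its interval below 1 in 7. S1pr4 was below 1 in the same 9 clusters, at 0.654 to 0.897, with its interval below 1 in 5. Rgs1 was above 1 in all 8 where it could be measured, with its interval above 1 in 4. These clusters share the same pair of libraries and so do not replicate a difference. The lower Cxcr5 was shared with the anti-CTLA-4 library in follicular B-like cells, at 97.9 and 111 CPM against 144 CPM in saline control. Both glioma libraries are thus below the 1 saline control library, and library and tumour cannot be told apart.

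The comparison of anti-CTLA-4 with isotype, both with B cells, was where most member and class pairs were past the size, 8 of 65 over 9 classes (4 higher, 4 lower), or 12.3%, beside 3.33% of all pairs. Of these 8 pairs, 4 were in germinal centre B-like cells, where 9.14% of all genes were past it and 8 of the 10 members had enough UMIs. Rgs13 went from 88.3 to 246 CPM (ratio 2.79, 2.32 to 3.37) and S1pr2 from 90.8 to 168 CPM (1.85, 1.52 to 2.25). Ccr6 went from 51.0 to 13.9 CPM (0.273, 0.176 to 0.413) and Ccr7 from 101 to 61.1 CPM (0.603, 0.479 to 0.759). S1pr2 and Rgs13, the members held largely to this class, were thus higher, and Ccr6 and Ccr7, which follicular B-like cells carry, were lower. Ccr7 was at 1.05 where doublets were not removed. Cxcr4 was at 1.46, short of the size, and Rgs1 at 1.00. The median log2 ratio of the members with enough UMIs was -0.06, beside 0.08 over all genes.

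**Figure D4:**
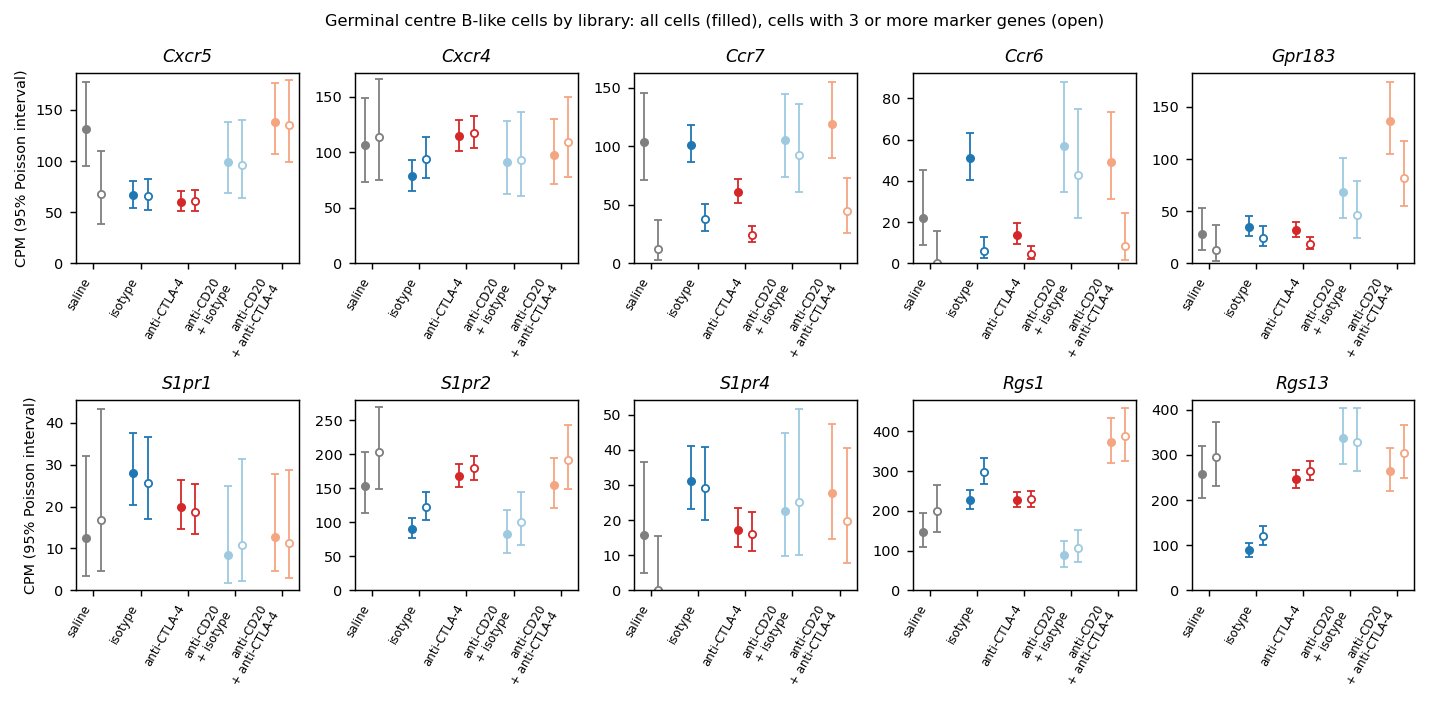
CPM (vertical axis) of each of the 10 genes in germinal centre B-like cells of the 5 libraries, with 95% Poisson intervals. Filled points are all cells of the class and open points the cells with UMIs of at least 3 of 5 germinal centre marker genes. The isotype library is the lowest for Rgs13, at 88.3 CPM against 246 to 338 CPM in the other 4.

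Isotype, and not anti-CTLA-4, was the library set apart for Rgs13, as the plot by library shows. With saline control in its place, an alternative chosen after the data were seen, the ratio of anti-CTLA-4 was 0.959 (0.760 to 1.22) for Rgs13 and 1.09 (0.811 to 1.503) for S1pr2. Rgs1 was then at 1.55 (1.15 to 2.13), Ccr7 at 0.592 (0.403 to 0.892) and Cxcr5 at 0.459 (0.323 to 0.663). Over all cells of the class Ccr7 was thus lower in anti-CTLA-4 against either library, while Rgs13 and S1pr2 were higher against isotype only. Rgs13 and S1pr2 parted in the depleted libraries, as given below. The saline control values rest on 29 cells, and 30 of their 33 Ccr7 UMIs came from 12 cells with few germinal centre marker genes. In the other 17 cells Ccr7 had 12.7 CPM, below the 24.2 CPM of such cells in anti-CTLA-4, so its direction against saline control turned with the cells used. The same 12 cells held 26 of the 42 Cxcr5 UMIs of saline control and 0 Rgs1 UMIs. In the 17 cells Cxcr5 had 67.6 CPM, against 60.75 in such cells of anti-CTLA-4, and Rgs1 had 198.6 against 228.9 CPM. Both differences from saline control were thus smaller in these cells.

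The class was not uniform, so its cells were also divided, after their values were seen, by UMIs of at least 3 of the 5 genes Mef2b, Eaf2, Basp1, Gcsam and Nuggc. Of the germinal centre B-like cells 17, 53, 145, 18 and 28 passed, and 12, 27, 25, 9 and 16 did not. The cells that did not pass had more Ccr7, at 6.69 times those that passed in isotype and 20.8 times in anti-CTLA-4. Ccr6 there was at 25.7 and 27.5 times, and Rgs13 at 0.106 and 0.103 times. The difference in Rgs13 was smaller in the other libraries, where cells that did not pass had 145 CPM in saline control, 374 in depleted isotype and 139.8 in depleted anti-CTLA-4. In depleted isotype, with 9 such cells, it was above that of the cells that passed. In the passing cells Rgs13 had 296, 119.8, 264.5, 329 and 304 CPM, S1pr2 203, 122.5, 179.5, 100 and 191 CPM, and Ccr7 12.7, 37.9, 24.2, 92.9 and 45.0 CPM. S1pr2 was thus lower in isotype than in anti-CTLA-4 both with B cells and after depletion. Rgs13 was instead highest in depleted isotype, and the cause was not tested. The ratio of anti-CTLA-4 to isotype in the passing cells was 2.21 (1.83 to 2.68) for Rgs13, the 1 member past the size, where 8.12% of genes were. S1pr2 was at 1.47 (1.205 to 1.79) and Rgs1 at 0.766 (0.666 to 0.882). Ccr7 was at 0.639 (0.419 to 0.979, from 53 and 43 UMIs) and Ccr6 at 0.741 (0.2545 to 2.29, from 10 and 7 UMIs). Both Ccr7 and Ccr6 had too few UMIs there to be counted, and the interval of Ccr6 included 1.

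**Figure D5:**
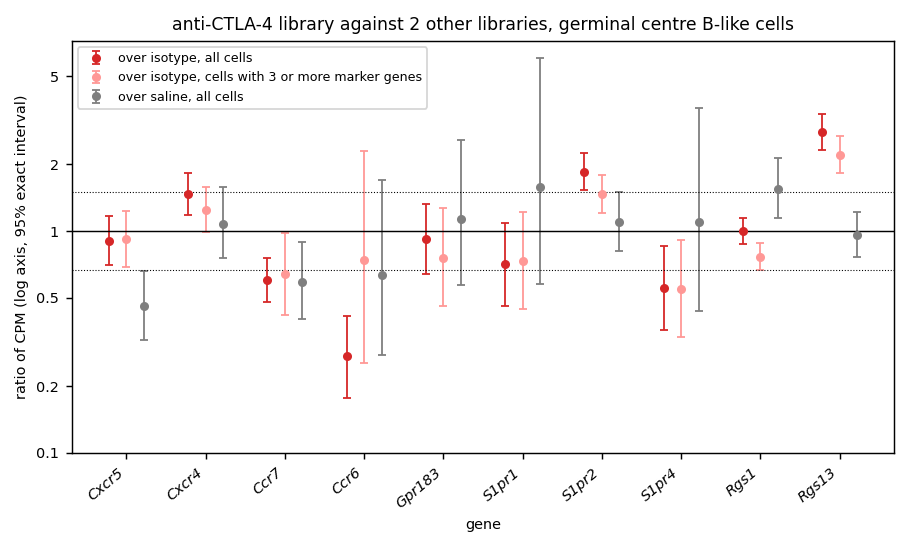
Ratio of CPM (vertical log axis) in germinal centre B-like cells, for anti-CTLA-4 over isotype in all cells, over isotype in cells with at least 3 marker genes, and over saline control in all cells, with 95% intervals. Dotted lines mark the size counted, 1.5 and its inverse. Rgs13 is at 2.79, 2.21 and 0.959 in the 3 settings.

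Heavy chain class, read from the receptor libraries of the same cells, divided the germinal centre B-like class without use of the 10 genes. In the anti-CTLA-4 library 58 germinal centre B-like cells had an IgG1 receptor and 52 an IgM or IgD receptor, at medians of 13357 and 17206 UMIs. Rgs1 had 296 CPM in IgG1 cells and 176 in IgM or IgD cells (ratio 1.68, 1.38 to 2.06), and Rgs13 had 289 and 180.3 CPM (1.60, 1.31 to 1.96). S1pr2 was at 1.23 (0.979 to 1.55), an interval that includes 1. Ccr7 had 12.0 and 93.3 CPM (0.129, 0.0599 to 0.249) and Gpr183 12.0 and 52.85 CPM (0.228, 0.103 to 0.454). In that library IgG1 cells thus had more of both RGS genes and less Ccr7 and Gpr183. In the isotype library, with 7 IgG1 cells, Rgs1 was at 2.69 (1.975 to 3.65) and Ccr7 at 0.261 (0.122 to 0.494), while the intervals of Rgs13 (0.782, 0.4155 to 1.38) and Gpr183 (0.473, 0.145 to 1.205) included 1.

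The same division was made among cells with at least 3 of the 5 marker genes. In this subset, which was added after the values were seen, 55 IgG1 and 45 IgM or IgD cells of the anti-CTLA-4 library were left. Rgs1 was then at 1.74 (1.41 to 2.15), Rgs13 at 1.445 (1.18 to 1.77), Ccr7 at 0.279 (0.111 to 0.624) and S1pr2 at 1.10 (0.877 to 1.39). In the isotype library, with 7 and 20 such cells, Rgs1 was at 1.84 (1.33 to 2.545) and Rgs13 at 0.4475 (0.237 to 0.794). Ccr7 was at 0.707 (0.305 to 1.51) and Gpr183 at 0.682 (0.192 to 2.00) there, and both intervals include 1. The Rgs1 ratio was above 1 in both of these libraries and that of Rgs13 was not. Saline control, which also had a receptor library, held too few UMIs to give a direction. Its IgG1 cells in this subset had 0 Rgs1 UMIs, against 9 in IgM or IgD cells, a bound of at most 1.41. Among cycling cells alone, the IgG1 ratio in the anti-CTLA-4 library was 1.61 for Rgs1, 1.53 for Rgs13 and 0.0810 for Ccr7. Cycling cells themselves, with UMIs of at least 3 of 8 mitotic genes, had 1.24 times the Rgs13 of the other cells in the anti-CTLA-4 library (1.01 to 1.52). The ratio was 0.617 (0.391 to 0.978) in saline control, 0.729 in isotype, 1.01 in depleted isotype and 1.14 in depleted anti-CTLA-4, so it had no common direction. That of Cxcr4 was 0.392, 0.678, 0.779, 2.05 and 0.606 in the 5 libraries, with an interval below 1 in saline control alone.

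Outside the germinal centre, anti-CTLA-4 and isotype differed in 4 member and class pairs. Other antigen-experienced CD4 T-like cells had less S1pr1, 81.4 against 147 CPM (0.552, 0.408 to 0.746), and less Rgs1, 304 against 472 CPM (0.644, 0.549 to 0.756). Against saline control in place of isotype, S1pr1 was still lower, at 0.584, while Rgs1 was at 1.09. Ccr6 in Treg-like cells was at 59.4 against 37.7 CPM (1.58, 1.19 to 2.10), and at 0.974 (0.763 to 1.25) against saline control. Rgs1 in memory CD8 T-like cells was at 103 against 67.4 CPM (1.53, 1.23 to 1.90). In the B cell clusters compared Ccr7 was below 1 in 10 of 10, at 0.603 to 0.941, and S1pr1 in 10 of 10, at 0.665 to 0.971. The interval was below 1 in 8 of them for Ccr7 and in 2 for S1pr1. Most of these were small, and in the 3 libraries follicular S1pr1 ran from 103 to 92.3 to 80.6 CPM.

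Depletion of B cells under isotype was compared in T cells. Over 5 classes 33 pairs had enough UMIs, and 2 were past the size, 1 higher and 1 lower, or 6.06%, beside 3.11% of all pairs. Rgs1 in other antigen-experienced CD4 T-like cells had 243 against 472 CPM (0.515, 0.443 to 0.599), and Ccr6 in Treg-like cells 57.4 against 37.7 CPM (1.52, 1.17 to 2.00). The Ccr6 ratio was at 1.035 where Treg-like cells were gated on marker genes. Among clustered cells, isotype with B cells was the library apart in both. The other 4 libraries had 243 to 304 CPM of that Rgs1 and 57.4 to 65.95 CPM of that Ccr6. Gated Treg-like cells had 56.6, 37.6, 51.0, 38.9 and 53.9 CPM of Ccr6, so isotype and depleted isotype were both low there. S1pr1 in naive CD4 T-like cells was at 220.4 against 226.5 CPM. The median log2 ratio of the members was -0.11 in naive CD4 T-like cells, beside 0.02 over all genes. The few B lineage cells left by depletion, 63 and 94, held 27 and 44 germinal centre B-like cells, so their summed levels follow that makeup and were not compared.

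Under anti-CTLA-4, depletion moved no member past the size in T cells, 0 of 35 pairs over 5 classes, beside 1.96% of all pairs. Ccr7 was at 0.777 in naive CD4 T-like, 0.762 in naive CD8 T-like and 0.711 in memory CD8 T-like cells, and at 1.44 in other antigen-experienced CD4 T-like cells. It had 457 against 588 CPM in the first of these and 442 against 580 CPM in the second. The naive and memory CD8 T-like classes were therefore lower in Ccr7 after depletion while other antigen-experienced CD4 T-like cells were higher, each short of 1.5. In that last class the anti-CTLA-4 library was itself low, at 0.617 (0.546 to 0.697) of saline control. The same ratio was 1.07 in naive CD4, 1.06 in naive CD8 and 1.11 in memory CD8 T-like cells.

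Within depleted mice, anti-CTLA-4 over isotype gave 1 of 41 pairs over 6 classes, higher, or 2.44%, beside 1.45% of all pairs. Rgs1 in proliferating T cells was at 133 against 81.7 CPM (1.63, 1.34 to 1.98). It was also above 1 in naive CD4 T-like cells, at 46.6 against 34.7 CPM (1.34, 1.20 to 1.495), and in memory CD8 T-like cells (1.41), short of the size, and was at 1.06 (0.991 to 1.14) in Treg-like cells. With B cells present the same antibody gave ratios for Rgs1 of 1.53 in memory CD8 T-like cells and 0.644 in other antigen-experienced CD4 T-like cells. Whether these differ between mice with and without B cells was not tested.

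The other genes of these pathways, a list of 40 that holds ligands, S1P handling genes, other RGS genes, G proteins, kinases and arrestins, scavengers and regulators, were read by the same size. In germinal centre B-like cells 17 had enough UMIs, and 4 differed between anti-CTLA-4 and isotype, where 9.14% of all genes did. Bach2 (1.86) and Bcl6 (1.53), transcription factors of the germinal centre programme, and Rgs2 (1.64) were higher, and Klf2 (0.435), which drives S1pr1, was lower. Bcl6 was at 142 against 116 CPM among cells with at least 3 of the 5 marker genes, short of the size. Over all germinal centre B-like cells Klf2 had 87.7, 129.9, 56.5, 56.8 and 168 CPM, and isotype was the higher of the 2 libraries compared. In other antigen-experienced CD4 T-like cells 16 of the 40 had enough UMIs, with Rgs2 (1.87) and Rgs3 (1.55) higher, beside 5.87% of all genes past the size. In activated B-like cells Klf2 (0.542) and Rgs14 (0.655) were lower, and in follicular B-like cells Rgs10 (1.76) was higher, at 3.68 and 6.47 CPM.

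Klf2 and S1pr1 did not differ alike in T cells. In naive CD4 T-like cells Klf2 had 900.4, 975.6, 870.2, 559.8 and 745.5 CPM, and its ratio of depleted isotype to isotype was 0.574 (0.556 to 0.592), while S1pr1 in the same cells was at 0.973. In Treg-like cells Klf2 was at 0.560 (0.5235 to 0.5995) and Bach2 at 1.595 (1.45 to 1.75). Rgs16, another brake of the RGS family, was at 0.477 in other antigen-experienced CD4 T-like cells in that comparison. Under depletion, anti-CTLA-4 over isotype put Rgs16 at 1.79 in other antigen-experienced CD4 T-like and 1.66 in proliferating T cells, with Rgs14 at 1.745 in the last. Depletion under anti-CTLA-4 left none of the 18 to 22 listed genes with enough UMIs past the size in any of the 5 T cell classes, where 1.48% to 3.36% of all genes were.

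Isotype over saline control gave a Klf2 ratio of 1.94 in activated B-like cells, and Gna13, the G protein that S1PR2 signals through, was at 1.61 in Fcrl5-high B cells. The genes lower in isotype were Arrb2 (0.580) and Sgpp1 (0.632) in Fcrl5-high B cells, Rgs10 (0.647) in follicular B-like and Sphk2 (0.656) in naive CD4 T-like cells. Of the ligands, Cxcl13 had 689, 6, 8, 2 and 2 UMIs over all cells, and 98.7% of those in the saline control library came from 1 cell.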

How the data were processed

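Each group had 1 expression library, and 3 groups also had a B cell receptor library, from the 5' V2 kit of 10x Genomics, per the labels. The authors deposited raw counts, that is UMIs per gene and barcode. Per the file headers these come from Cell Ranger 7.0.1, and the submitters' processing notes name bcl2fastq 2.20.0 and mm10. Receptor tables give, as deposited, counts of UMIs and a constant gene per contig, and heavy chains were matched to cells by barcode. The sources used here give no other setting.

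Barcodes with at least 500 genes and at most 10% mitochondrial UMIs were kept, and the highest Scrublet scores removed as doublets, 0.8% per 1000 barcodes (scanpy 1.11.5). Cells were clustered without the 10 members and without antigen receptor genes (2000 variable genes, 30 components, 15 neighbours, Leiden resolution 1, leidenalg 0.10.2) and named from markers. The naming thresholds, and resolution 2 for antigen-experienced CD4 T cells, were set after clusters were seen. The members and lists were chosen with earlier results of these data known.

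UMIs were summed per class and library where it held at least 20 cells (10 for Tfh-like cells, lowered after 16 and 18 cells were found) and given as CPM with exact Poisson intervals. Ratios needed 50 cells in both libraries and carry exact conditional binomial intervals (scipy 1.17.1). Within a library, ratios between classes used the classes with a level. Where a class held 0 UMIs, a bound was computed from a floor of 3 counts. No p-value was computed, since groups had 1 library each. The scripts were tested on simulated data. All members were named, with the 3 genes most like each over classes among genes of at least 50 CPM in 1 class, and the genes of the pathway list past 1.5-fold, up to 4 per comparison and class. Other clusterings, filters, size factors, gates and cell sets were tried as alternatives. Some marker and pathway genes, and what rests on them, are not reported here.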

Additional observations from a re-analysis of the deposited data

How the results depend on the processing

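The numbers of member and class pairs past 1.5-fold depended on the settings as follows. Depleted isotype over isotype gave 1 without doublet removal, with at least 1000 genes and at most 5% mitochondrial UMIs, and without cells holding genes of the other lineage. Depleted anti-CTLA-4 over anti-CTLA-4 gave 2 at resolution 2, 1 without doublet removal, 3 with the stricter cell filter, 2 with the members clustered on, 1 without cells holding genes of the other lineage and 4 with a minimum of 20 UMIs in place of 100. Within depleted mice the count was 2 with the stricter filter and 2 at 20 UMIs. By rank correlation 4 of the 30 alike genes were named again.

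Some ratios changed direction. In germinal centre B-like cells Ccr7 was at 1.05 for anti-CTLA-4 over isotype without doublet removal. With saline control in place of isotype, an alternative chosen after the data were seen, Rgs13 in the same cells was at 0.959, Rgs1 in other antigen-experienced CD4 T-like cells at 1.09, and Ccr6 in Treg-like cells at 0.974 for anti-CTLA-4 and 0.941 for depleted isotype. Median-ratio size factors, and leaving out the clusters over 90% from 1 library, left 39 of 39 ratios within their counting interval. The size factors still took some ratios short of 1.5-fold: Cxcr5 in the B lineage (0.671) and Ccr7 in other antigen-experienced CD4 T-like cells (0.668) for isotype over saline control, Ccr6 in Treg-like cells for anti-CTLA-4 (1.482) and depleted isotype (1.484) over isotype, and Rgs1 in memory CD8 T-like cells (1.453).

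Across the planned settings that could give a value, Rgs13 (2.55 to 3.82) and S1pr2 (1.64 to 2.465) in germinal centre B-like cells stayed past 1.5-fold against isotype in 8 of 8, and S1pr1 in other antigen-experienced CD4 T-like cells (0.533 to 0.617) in 7 of 7. The upper ends for Rgs13 and S1pr2 came from the marker gate, which takes any B lineage cell. Of its 82 isotype cells, 53 were in the clustered class, and these held all 136 of the gate's Rgs13 UMIs. The other gated cells thus lowered the isotype level to 61.98 CPM, and the gate is no separate check of these ratios. In cells with at least 3 marker genes, an alternative chosen after the data were seen, S1pr2 was at 1.47, short of the size, and Rgs13 at 2.21. Ccr7 and Ccr6 in germinal centre B-like cells stayed past 1.5-fold in 6 of 8 planned settings, Ccr6 in Treg-like cells in 6 of 8 (7 of 8 for isotype over saline control, 3 of 8 for depleted isotype over isotype), Rgs1 in memory CD8 T-like cells in 2 of 7 and Rgs1 in other antigen-experienced CD4 T-like cells in 3 of 7. For isotype over saline control, Ccr7 in that class held in 4 of 7 (0.520 to 0.726) and Cxcr5 in naive CD8 T-like cells in 3 of 7 and in memory CD8 T-like cells in 4 of 7. Without cells holding genes of the other lineage these Cxcr5 ratios were 1.78 and 1.75, from fewer than the 100 UMIs needed. Gates on marker genes gave 3 classes and so no count of pairs. No paired analysis was possible because each group has 1 library and the labels carry no replicate numbers. Tfh-like and germinal centre B-like values rest on 16 to 170 cells per library, which limits their precision.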
